A study of Triticum aestivum with 12 samples.

Results

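The description covers 75 probe sets whose signals were lowest in C. LK, the roots that had low K in both compartments of a split-root system. They were chosen by a rule on the measured values. Of the 61115 probe sets of the wheat array left after control probe sets were dropped, 26541 had a mean log2 signal of at least 7 over the 12 arrays, which is 128 on the linear scale. Of those, the rule kept every probe set for which all 3 C. LK arrays lay below all 9 other arrays and for which the mean of C. LK lay at least 0.585 log2 units, or 1.5-fold, below the mean of the 9 others. Probe sets of 3 glutathione transferase genes were to be left out, and this removed 0 probe sets.

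In order to simulate a patchy K supply, the roots of each seedling of the wheat genotype Tongzhou916 were divided between a pair of compartments. Plants raised in normal K entered the compartments at an age of 3 weeks, and roots were taken after 5 d. In C. LK both compartments held 0.005 mmol per L K2SO4. In the split treatment one compartment held 0.005 mmol per L (its roots are Sp. LK) and the other 1.0 mmol per L K2SO4 (its roots are Sp. NK), so that Sp. LK and Sp. NK roots came from plants of the same treatment. In C. NK both compartments held 1.0 mmol per L. Each group had 3 arrays, and each replicate was a pool of 20 plants. Every sample held whole roots from 1 compartment, so that fewer cells of a type and less RNA per cell cannot be told apart. C. LK was the only group of plants with no root in normal K, and C. LK and Sp. LK roots stood in the same solution. Thus, the 75 probe sets set roots of plants without access to normal K against all other roots.

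Potassium is the most abundant inorganic cation of plant cells, where it serves osmotic pressure, membrane potential and enzyme activity. Roots take it up through channels and high-affinity carriers at the plasma membrane, and much of it moves on to the shoot in the xylem. In a split-root plant the low-K roots stay joined to a shoot that is fed from the other side, so a comparison of Sp. LK with C. LK holds the local solution constant and changes the rest of the plant. Wheat has an A, a B and a D genome, and a probe set can pick up the near-identical copies from all of them. The signals below are therefore those of a probe set and not of 1 gene copy.

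The correlation between any pair of arrays over all probe sets lay between 0.914 and 0.930, no pair was identical, and between 30.4% and 33.8% of the probe sets had a linear signal under 32. Of the 12 arrays, C. LK replicate 2 had the lowest median log2 signal (6.364) and the most probe sets under 32 (33.8%), and Sp. LK replicate 2 had the highest median (6.589) and the fewest under 32 (30.4%). The probe sets of tubulin, a protein of the cytoskeleton, were bright (10 of 10 at or above a mean of 7, median 12.65), while those of photosynthesis genes (6 of 33, median 3.26) and of seed storage proteins (4 of 23, median 4.44) mostly had low signals. For 7 wheat control genes with probe sets at both ends of the transcript, the 3′ minus 5′ difference of the C. LK arrays overlapped that of the 9 other arrays taken as 1 set. Between C. LK and C. NK alone it did not overlap for sucrose synthase (3.86 to 4.06 in C. LK and 4.29 to 4.51 in C. NK) and for actin (-1.51 to -0.99 in C. LK and -3.87 to -2.16 in C. NK), and the part of this in the 75 differences was not tested. The 3′ probe set of actin was dim, with a mean log2 signal of 5.98, and lay below the 5′ one (7.86). So were those of GAPDH (5.67, against 7.94 at the 5′ end), EF1a (5.77, against 7.16) and CYP86 (6.63, against 6.88). The 3′ probe sets of sucrose synthase (13.78), G-6-PDH (12.90) and ubiquitin (14.18) were bright. The tubulin signals therefore do not stand for every widely expressed gene.

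In order to see how often such an order arises, the rule was counted for each group. With 12 arrays, 1 in 220 placements puts a given set of 3 arrays below all others. For 26541 probe sets this gives 120.6 expected by chance before the fold limit, if all placements were equally likely. C. LK was below all 9 others in 260 probe sets, which is 0.98% of those with a mean of at least 7, and 75 of them (0.283%) were also past the fold limit. C. LK was above all 9 others in 181 probe sets, and 59 of these were past the fold limit. The same counts for the lowest group were 80 for Sp. LK, 55 for Sp. NK and 93 for C. NK, of which 14, 10 and 19 were past the fold limit. For the highest group they were 87 for Sp. LK, 41 for Sp. NK and 133 for C. NK, and 26, 8 and 7 of them were past it. C. LK thus had the highest count of the 4 groups on both sides. The values that chose the 75 probe sets are described here without a test.

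**Figure D1:**
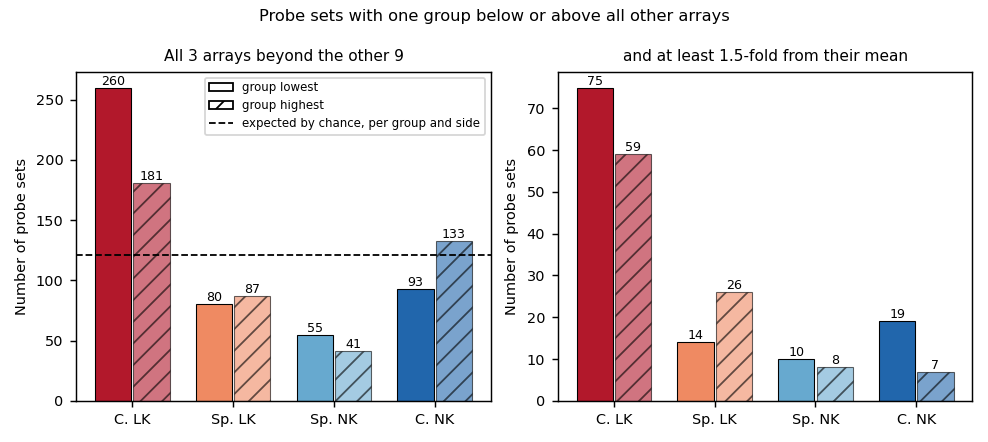
Number of probe sets with a mean log2 signal of at least 7 in which all 3 arrays of a group lay below (plain bars) or above (hatched bars) the other 9 arrays, without (left) and with (right) the 1.5-fold limit; the dashed line marks the 120.6 expected by chance. C. LK was lowest in 260 probe sets and, with the limit, in 75.

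The 75 differences were mostly small. The mean of C. LK lay below the mean of the 9 others by 0.59 to 2.67 log2 units, with a median of 0.75, which is 1.68-fold. Here and below, a fold between C. LK and the 9 others is this difference of mean log2 signals turned into a ratio, not a ratio of mean linear signals. Only 16 of the probe sets differed by 2-fold or more and 3 by 4-fold or more, while 39 differed by less than 0.75 log2 units. The gap between the highest C. LK array and the lowest other array had a median of 0.12 log2 units and a range of 0.0074 to 0.49. Most of the 75 probe sets were dim: their mean log2 signal had a median of 8.03, against 9.23 over all probe sets with a mean of at least 7. In all, 35 of them had a mean under 8 and 12 had a mean of 10 or more. Arrays of a group also varied more in these probe sets than over the 26541, in all groups but C. NK. The SD of the log2 signal within C. LK had a median of 0.27, against 0.19 over the 26541 probe sets. It was 0.33 within Sp. LK (against 0.197), 0.25 within Sp. NK (against 0.188) and 0.20 within C. NK (against 0.203). The 26541 were not matched to the 75 for signal, and the part of low signals in these SDs was not tested.

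At the limits of the rule, the probe sets just inside and just outside hardly differed. For the fold limit, Ta.7630.1.S1_at, TaAffx.85594.1.S1_at and TaAffx.114282.1.S1_at were inside at 0.587, 0.587 and 0.591 log2 units, and Ta.12120.1.A1_at, TaAffx.90384.1.S1_at and Ta.4634.1.S1_at were outside at 0.580, 0.572 and 0.571. For the minimum signal, TaAffx.143995.1.S1_at, TaAffx.118164.1.S1_at and TaAffx.85594.1.S1_at were inside at a mean log2 signal of 7.004, 7.023 and 7.025, and TaAffx.95254.1.A1_at, Ta.14397.1.S1_at and Ta.8365.1.A1_at were outside at 6.96, 6.95 and 6.94. For the separation, Ta.303.3.S1_x_at, Ta.8861.1.A1_at and Ta.14330.1.S1_at were inside with gaps of 0.0074, 0.0081 and 0.015 log2 units. The closest probe sets outside, Ta.13262.3.A1_at, TaAffx.12637.1.A1_at and Ta.3790.1.S1_at, had an overlap of less than 0.001 log2 units.

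**Figure D2:**
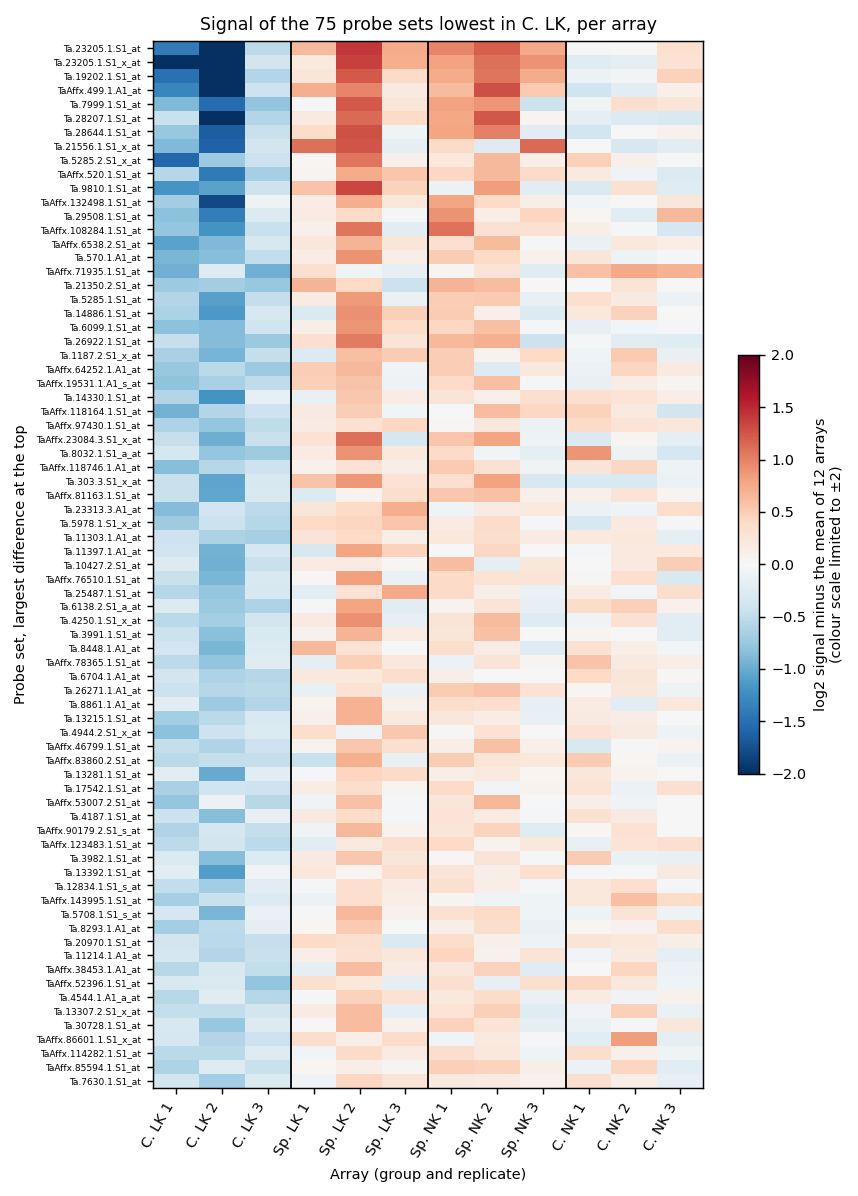
log2 signal of each of the 75 probe sets (rows, largest difference at the top) on each array (columns, by group) minus the mean of the 12 arrays. The C. LK columns are the lowest in every row by the rule, C. LK 2 is the lowest array in 49 rows, and Sp. LK 2 is the highest in 43.

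Single arrays moved with the 75 as a set. By the rule a C. LK array was the lowest of the 12 in each of them: replicate 2 in 49, replicate 1 in 20 and replicate 3 in 6. These arrays were the lowest in 17.7%, 6.63% and 5.06% of the 26541, where any of the 12 arrays could be lowest. The rule itself thus raises the shares in the 75, and the order of the C. LK replicates was the same in both. The median deviation from the mean of 12 arrays was -0.77 log2 units for the 75 on C. LK replicate 2, -0.58 on replicate 1 and -0.42 on replicate 3. The sign of these deviations is set by the rule. Sp. LK replicate 2 was the highest array in 43 of the 75, against 18.1% of the 26541, where C. LK arrays could be highest too. Its median deviation was 0.59, while Sp. LK replicates 1 and 3 had 0.15 and 0.16. Sp. NK replicates 1 and 2 had 0.35 and 0.34, C. NK replicate 2 had 0.17, and Sp. NK replicate 3 and C. NK replicates 1 and 3 were near 0. Over the 9 arrays other than C. LK, the mean correlation between pairs of the 75 was 0.31, and 0.33 after the group means were removed, against 0.011 and 0.014 over the 26541. Thus, the 75 varied together from replicate to replicate within a group. The points of this correlation are arrays shared by all probe sets, and what moved with the arrays was not tested.

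Without C. LK replicate 2 the rule found 97 probe sets, 53 of them among the 75, and without Sp. LK replicate 2 it found 63, of which 62 were among the 75. Without both it found 95, and 48 of the 75 remained. The count moved most with other arrays: dropping C. LK replicate 3 gave 425, dropping C. NK replicate 3 gave 177 and dropping C. LK replicate 1 gave 159. With an array left out, fewer arrays have to lie in order, so more probe sets pass by chance. This holds most of all for a C. LK array, and these counts are therefore not like the 75. The probe sets of plain type _at made up 57 of the 75 (76%, against 66.7% of the 26541), and 11 were _x_at, 4 _s_at and 3 _a_at.

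The 3 probe sets with the largest differences had a mean log2 signal in C. LK that lay more than 4-fold below that of the 9 others. Ta.23205.1.S1_at had linear signals of 223, 34.3 and 406 in C. LK roots, 922, 1562 and 983 in Sp. LK roots, and 1154, 1336 and 995 in Sp. NK roots, against 570.01, 589 and 728 in C. NK roots. Its log2 difference was -2.67 (6.38-fold on the log2 means), with mean linear signals of 221 ± 186 in C. LK, 1156 ± 353 in Sp. LK, 1161 ± 171 in Sp. NK and 629 ± 86.4 in C. NK (SD, n = 3 each). The C. LK arrays spanned over a 10-fold range here, and without C. LK replicate 2 the log2 difference was -1.63. The same transcript cluster gave Ta.23205.1.S1_x_at, with 171, 169 and 653 in C. LK roots, 959, 2171 and 1393 in Sp. LK roots, and 1469, 1792 and 1561 in Sp. NK roots, against 709.6, 739 and 1023 in C. NK roots. In this probe set the C. LK signal was 4.61-fold lower, with replicates 1 and 2 near each other and replicate 3 nearer to C. NK. Ta.19202.1.S1_at had 298, 135 and 559 in C. LK roots, 988, 1960.1 and 1093 in Sp. LK roots, and 1405, 1761 and 1398 in Sp. NK roots, against 769, 802 and 1146 in C. NK roots, and C. LK was 4.25-fold lower. All 3 had a like order of group means, with both sides of the split plants above C. NK and C. NK above C. LK. None of these probe sets has a gene symbol in the platform annotation.

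The other 7 of the 10 largest differences lay between 2.26-fold and 3.24-fold. TaAffx.499.1.A1_at had signals of 56, 32.4 and 104 in C. LK roots, 229.8, 273 and 157 in Sp. LK roots, and 214, 337 and 199.6 in Sp. NK roots, against 105, 119 and 148 in C. NK roots. Here the highest C. LK array and the lowest C. NK array were only 0.018 log2 units apart. Ta.7999.1.S1_at had 91.8, 58.4 and 97.8 in C. LK roots, 166, 396 and 200.05 in Sp. LK roots, and 296, 311 and 125 in Sp. NK roots, against 161, 216 and 200.3 in C. NK roots. Ta.28207.1.S1_at had 559.7, 189.5 and 506 in C. LK roots, 869.9, 1669 and 989 in Sp. LK roots, and 1299, 1801 and 786 in Sp. NK roots, against 669, 631 and 612 in C. NK roots. In the last of these the C. NK arrays were tightly grouped and lay just above C. LK, while Sp. LK replicate 2 and Sp. NK replicate 2 stood above the other split roots. Ta.28644.1.S1_at, which is also among the 10 brightest by mean linear signal in the 9 other arrays, had 1344, 731 and 1672 in C. LK roots, 2944, 5525 and 2156 in Sp. LK roots, and 3927, 4600.2 and 1979 in Sp. NK roots, against 1754, 2273 and 2430.4 in C. NK roots. Ta.21556.1.S1_x_at averaged 104 ± 43 in C. LK, 341 ± 153 in Sp. LK, 273 ± 129.7 in Sp. NK and 167 ± 18.7 in C. NK (SD, n = 3 each). In both, arrays of the split roots with low values overlapped C. NK. Ta.5285.2.S1_x_at averaged 76 ± 28.1 in C. LK, 189.9 ± 83.5 in Sp. LK, 173 ± 35 in Sp. NK and 156 ± 29.8 in C. NK (SD, n = 3 each). TaAffx.520.1.S1_at averaged 324 ± 92.1 in C. LK, 809.8 ± 189 in Sp. LK, 813 ± 83.4 in Sp. NK and 562 ± 90.0 in C. NK (SD, n = 3 each). Both had wide gaps between the highest C. LK array and the lowest other array, at 0.39 and 0.31 log2 units. A second probe set of the cluster of the first, Ta.5285.1.S1_at, was also among the 75, as in the case of Ta.23205.

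**Figure D3:**
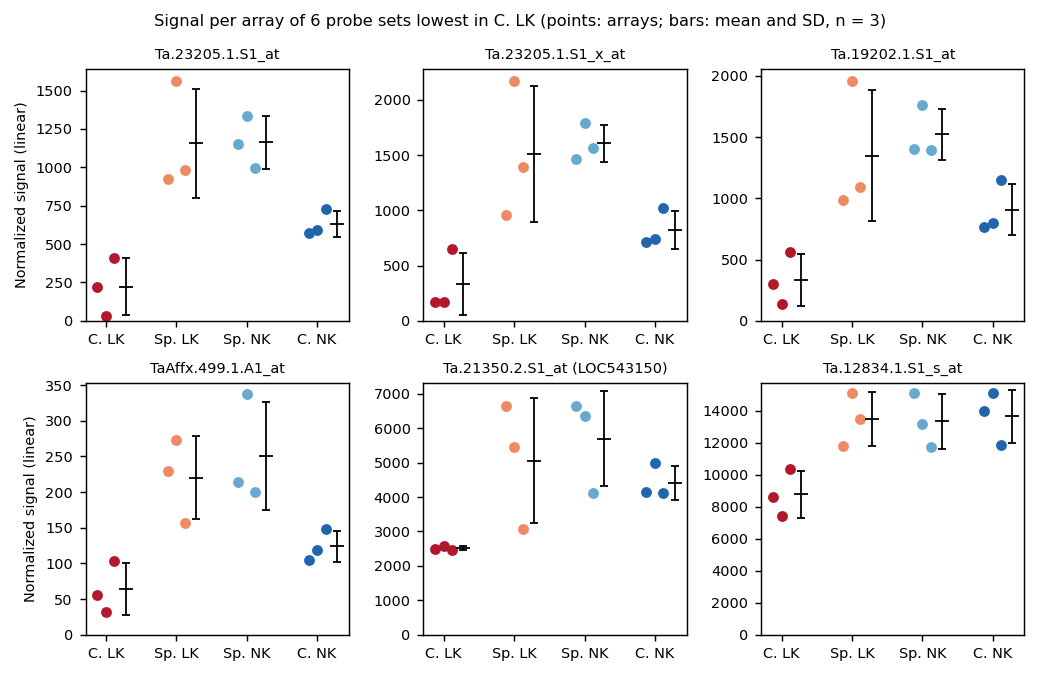
Linear normalized signal (y axis, from 0) of 6 of the 75 probe sets on each of the 12 arrays (points) by group (x axis), with the group mean and SD (n = 3). In Ta.23205.1.S1_at C. LK averaged 221, while in the bright Ta.12834.1.S1_s_at it averaged 8790, against 13654 in C. NK.

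The brightest probe sets mostly showed smaller differences. Ta.12834.1.S1_s_at had signals of 8594, 7433 and 10341 in C. LK roots, 11779, 15135 and 13494 in Sp. LK roots, and 15109, 13164 and 11731 in Sp. NK roots, against 13981, 15130.1 and 11851 in C. NK roots. The 3 other groups overlapped fully and had nearly equal means, and C. LK was 1.54-fold lower than the 9 others. Ta.6099.1.S1_at had 1944, 1874 and 2604 in C. LK roots, 3711, 6358 and 4439 in Sp. LK roots, and 4585, 5207 and 3390.1 in Sp. NK roots, against 3059.9, 3292 and 3342 in C. NK roots. In contrast to the first, it was higher on both split sides than in C. NK, and every array of Sp. LK and Sp. NK lay above every C. NK array. Ta.13307.2.S1_x_at averaged 2565 ± 117 in C. LK, 4101 ± 1168 in Sp. LK, 4019.5 ± 976 in Sp. NK and 3788 ± 941 in C. NK (SD, n = 3 each), and Ta.4250.1.S1_x_at averaged 1019.8 ± 106 in C. LK, 1906 ± 749.8 in Sp. LK, 1751 ± 519.7 in Sp. NK and 1488 ± 289 in C. NK (SD, n = 3 each). In these probe sets the C. LK arrays were close to each other, and the other groups overlapped. Ta.3982.1.S1_at averaged 1049 ± 225 in C. LK, 1794 ± 252 in Sp. LK, 1516 ± 165 in Sp. NK and 1537 ± 424 in C. NK (SD, n = 3 each). Ta.7630.1.S1_at averaged 1067 ± 152 in C. LK, 1671 ± 276 in Sp. LK, 1588 ± 58.6 in Sp. NK and 1546 ± 255 in C. NK (SD, n = 3 each). Ta.6138.2.S1_a_at averaged 904 ± 156 in C. LK, 1542 ± 613 in Sp. LK, 1361 ± 193 in Sp. NK and 1623 ± 217 in C. NK (SD, n = 3 each). The C. LK mean was the lowest in each of them, while the order of the 3 other groups differed from probe set to probe set. TaAffx.132498.1.S1_at averaged 663 ± 350 in C. LK, 1419 ± 319 in Sp. LK, 1484 ± 350.4 in Sp. NK and 1133 ± 115 in C. NK (SD, n = 3 each), with a low C. LK replicate 2 (311) and a C. LK replicate 3 (1011) close to C. NK replicate 1 (1044).

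Only 4 of the 75 probe sets (5.33%) had 1 gene symbol in the platform annotation, against 2.99% of the probe sets with a mean of at least 7. Their symbols are locus names, and no role is given for them in the sources used here. Ta.21350.2.S1_at, of LOC543150, had signals of 2498, 2574 and 2458 in C. LK roots, 6642, 5459 and 3066 in Sp. LK roots, and 6633, 6340.1 and 4119.6 in Sp. NK roots, against 4138, 4982 and 4118 in C. NK roots. The C. LK arrays differed by less than 120 signal units, whereas the 9 others ranged from 3066 to 6642. Another probe set of LOC543150, Ta.30711.1.S1_x_at, had 14717, 12494 and 16588 in C. LK roots, 16115, 19362 and 17953 in Sp. LK roots, and 18224, 15843 and 15371 in Sp. NK roots, against 18932, 17247 and 14465 in C. NK roots. Its C. LK arrays overlapped the others, and the log2 difference was -0.23, against -0.97 for Ta.21350.2.S1_at. Ta.570.1.A1_at, of LOC543100, had 101, 105 and 134 in C. LK roots, 209, 354 and 207 in Sp. LK roots, and 268, 250.4 and 201 in Sp. NK roots, against 224, 176 and 183 in C. NK roots. It had the highest Sp. LK signal on replicate 2, as most of the 75 had, and C. LK was 2.01-fold lower.

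TaAffx.118164.1.S1_at, of LOC100037602, had 67.9, 86.4 and 97.9 in C. LK roots, 147, 183 and 125 in Sp. LK roots, and 129.8, 200.1 and 174 in Sp. NK roots, against 179, 149.5 and 101 in C. NK roots. The highest C. LK array (97.9) nearly met the lowest C. NK array (101). The 3 other probe sets of LOC100037602, Ta.30816.1.S1_at, Ta.30816.1.S1_s_at and TaAffx.118164.1.S1_x_at, had log2 differences of -0.31, -0.32 and -0.29, against -0.86 for the member. They went the same way as the member, but their C. LK arrays overlapped the other arrays. TaAffx.143995.1.S1_at, of LOC732708, had 81.1, 94.3 and 106 in C. LK roots, 118, 161 and 140.2 in Sp. LK roots, and 133, 121 and 121 in Sp. NK roots, against 148, 195 and 165 in C. NK roots. It was one of the 9 probe sets of the 75 with C. NK as the highest group mean. None of the 4 genes is on a gene list used here. Of 18 lists of transport, signalling, stress and metabolism genes, 3 had at least 3 annotated genes (defence, dehydrins and related proteins, and seed storage), and 0 lists held any of the 75. Since 71 of the 75 have no symbol, only the 4 named here could have been on a list. The count of 0 therefore says nothing about the functions of the 75.

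In order to see whether other probe sets of the same transcripts followed, the probe sets that share a cluster number with one of the 75 were taken. The cluster number, the first part of the identifier, groups the sequences from which the array was designed. The 75 fell into 73 clusters, and 39 of these had 124 other probe sets, of which 59 had a mean of at least 7. Of the 59, 48 (81.4%) were lower in C. LK than in the 9 others, against 51.8% of all 26541, and their median log2 difference was -0.23, against -0.0086. Past the fold limit were 12 of the 59, while 1.86% of the 26541 were. All C. LK arrays were below all others in 1 of them, Ta.13307.1.S1_x_at. The number TaAffx.143995 is shared by 51 further probe sets, more than any other number here, and these probe sets carry 2 different gene symbols. The number Ta.21350 also carries 2 symbols, LOC543150 for the member and LOC543197 for Ta.21350.1.S1_x_at, and was kept. Without TaAffx.143995, 43 of 46 probe sets in 27 clusters were lower in C. LK, with a median of -0.28 and 12 past the fold limit. Of these 46, 25 were of the types _x_at, _s_at or _a_at, which can share probes or match several transcripts. Among the other 21, of the plain type _at, 19 were lower, with a median of -0.26. Some plain probe sets come from the same numbered sequence as a member, such as Ta.21556.1.S1_at beside Ta.21556.1.S1_x_at. All were read on the same 12 arrays that chose the members. These counts are therefore not independent of the rule.

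The largest differences among these other probe sets were in the cluster of TaAffx.23084.3.S1_x_at. TaAffx.23084.1.S1_at had 159, 48 and 272 in C. LK roots, 710.4, 1318 and 208 in Sp. LK roots, and 643, 949.7 and 493 in Sp. NK roots, against 374, 355 and 441 in C. NK roots, and a log2 difference of -2.06. TaAffx.23084.1.S1_x_at had a log2 difference of -1.50. Neither was among the 75, since a C. LK array lay above an array of another group, and in both C. LK replicate 2 was lowest. Ta.21556.1.S1_at followed Ta.21556.1.S1_x_at at -1.25. In the cluster of Ta.29508.1.S1_at, Ta.29508.3.S1_a_at and Ta.29508.2.S1_a_at had -0.9998 and -0.89. Probe sets that did not follow included Ta.6704.2.S1_at (0.07), TaAffx.53007.1.S1_s_at (0.10) and TaAffx.6538.1.S1_at (0.11), the 3 of the 46 that were higher in C. LK.

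**Figure D4:**
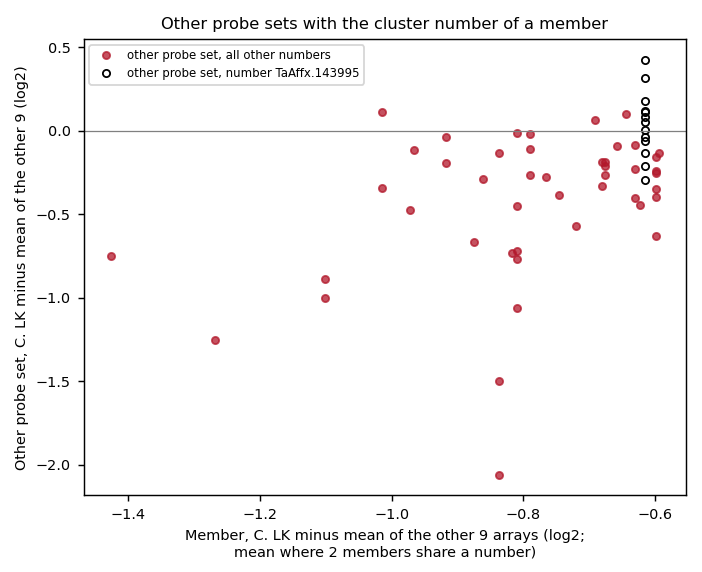
log2 difference of C. LK from the mean of the 9 other arrays for other probe sets with the cluster number of one of the 75 (y axis, mean log2 signal at least 7) against that of the member (x axis, chosen by the rule). Of the 46 filled points 43 lie below 0, and the open points belong to the number TaAffx.143995.

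The cluster Ta.303 had one of the 75 and a probe set that the study lists among its glutathione transferase and vesicle genes. Glutathione transferases join the tripeptide glutathione to reactive compounds. The member, Ta.303.3.S1_x_at, had signals of 352, 231 and 381 in C. LK roots, 709, 876 and 586 in Sp. LK roots, and 603, 832 and 383 in Sp. NK roots, against 387, 385 and 439.95 in C. NK roots. The listed probe set, Ta.303.2.S1_x_at, had 388, 155 and 257 in C. LK roots, 668, 859.9 and 447 in Sp. LK roots, and 656, 709.7 and 507 in Sp. NK roots, against 391, 414 and 284 in C. NK roots, and was not among the 75 because C. LK replicate 1 (388) lay above C. NK replicate 3 (284). The other probe sets Ta.303.2.S1_at and Ta.303.3.S1_at had log2 differences of -0.77 and -0.72, while Ta.303.1.S1_at and Ta.303.1.S1_x_at had -0.45 and -0.02. None of the 75 was itself on the study's lists of 87 probe sets. Those lists cover rises in Sp. NK against C. NK and falls in Sp. LK against C. LK. By the rule every Sp. LK array lay above every C. LK array, so no member could be among the falls. The 87 are also few beside the 61115. The paper describes genes low in C. LK that rose in Sp. LK too, a class these lists do not set out. The count of 0 is therefore no comparison with the study's results. The study chose its lists on these same arrays.

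Among the 3 groups that the rule did not set apart, the 75 mostly had higher means on the split sides than in C. NK. The median log2 difference of C. LK was -0.83 from Sp. LK, -0.78 from Sp. NK and -0.65 from C. NK. The highest of the 12 arrays was an Sp. LK array in 52 of the 75, an Sp. NK array in 17 and a C. NK array in 6. Of the 52, 43 rest on the single array Sp. LK replicate 2. Over the 26541, Sp. LK replicates 1 to 3 were highest in 5.95%, 18.1% and 6.28%. The shares were 7.06%, 5.55% and 4.08% for Sp. NK and 9.76%, 8.29% and 7.55% for C. NK, and C. LK arrays had the rest. The lowest of the 9 other arrays was a C. NK array in 36 of the 75, an Sp. NK array in 21 and an Sp. LK array in 18. Over the 26541, C. NK replicates 1 to 3 were the lowest of all 12 arrays in 7.309%, 5.173% and 12.249%. The shares were 6.341%, 5.923% and 9.295% for Sp. NK and 6.454%, 12.434% and 5.403% for Sp. LK. Shares among the 9 arrays alone were not counted, so the 36 has no like share to be set against. By group means, 28 had the order Sp. LK, Sp. NK, C. NK from high to low (37.3%, against 21.9% of the 26541) and 20 the order Sp. NK, Sp. LK, C. NK (26.7%, against 15.2%). These shares are descriptions, since the 75 move together across arrays and are not independent.

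The rule used all 12 arrays, since each of the 9 others had to lie above C. LK, but it did not use the differences among the 3 other groups directly. These 3 contrasts were fitted over all 61115 probe sets with limma, at the thresholds of the study (p below 0.05 and a change above 1.5-fold). This main fit took 1 estimate of the spread from all 12 arrays. The C. LK arrays that chose the 75 therefore entered each standard error and p. Without those 3 arrays, 5 of the 75 were higher in Sp. NK vs. C. NK and 8 in Sp. LK vs. C. NK. Of all 61115, 1160 and 1299 were then higher. Values below are from the main fit unless another is named. In Sp. LK vs. Sp. NK, the sides of the split plants, none of the 75 passed the thresholds in either direction, while 0.377% of the 26541 probe sets were higher and 0.283% lower. Of the 75, 47 were positive (62.7%, against 52.8% of the 26541). The median log2 fold change of the 75 was 0.04, against 0.01, with a range of -0.45 to 0.62. The sign of this median turned with single arrays, at -0.11 without Sp. LK replicate 2, -0.07 without Sp. NK replicate 3 and -0.03 with median centring of each array, while dropping other Sp. LK or Sp. NK arrays gave 0.10 to 0.13. At an unadjusted p below 0.05 there was 1 of the 75, Ta.26271.1.A1_at, against 1.53% of the 26541. It was lower in Sp. LK by 0.45 log2 units (standard error 0.18), and it was named after its value was seen. None of the 61115 probe sets passed the adjustment in the main limma fit, while 1907 of them had an unadjusted p below 0.05. The median standard error of a contrast was 0.24 log2 units over the 75, so a change of 1.5-fold in a single probe set was near the limit of what 3 arrays a group could show.

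In Sp. NK vs. C. NK, where both roots stood in normal K and the plants differed in the other compartment, 3 of the 75 passed as higher (4% of them, against 0.889% of the 26541) and 1 as lower (0.456%). The median log2 fold change was 0.16, against -0.0038, and 53 of 75 were positive (70.7%, against 49.0% of the 26541). This median was 0.08 without Sp. NK replicate 2, 0.09 without Sp. NK replicate 1 and 0.24 without Sp. NK replicate 3. TaAffx.499.1.A1_at was higher by 0.98 ± 0.39 log2 units (standard error), Ta.23205.1.S1_x_at by 0.98 ± 0.42 and Ta.28207.1.S1_at by 0.94 ± 0.38. In all 3, every Sp. NK array lay above every C. NK array. TaAffx.71935.1.S1_at was lower by 0.65 log2 units (standard error 0.27). Its signals were 68.7, 112 and 68.7 in C. LK roots, 168, 127 and 119.8 in Sp. LK roots, and 139, 161 and 114 in Sp. NK roots, against 200.3, 227 and 216 in C. NK roots, so that C. NK stood above all other arrays and C. LK below them. At an unadjusted p below 0.05 there were 6 of the 75 (8%), against 3.35% of the 26541. None passed after Benjamini-Hochberg adjustment over all 61115 probe sets in limma, and the lowest adjusted p of the 75 was 0.999. None of the 61115 passed it in the main fit either, while 2594 of them had an unadjusted p below 0.05. When only these 6 arrays were fitted, blocked by replicate number, 7 of the 75 were higher and 1 lower, and 16 had an unadjusted p below 0.05, against 1178 higher and 3462 at an unadjusted p below 0.05 of all 61115. This fit was added after the data were seen. In it 21 of the 61115 probe sets passed the adjustment, and 0 of these were among the 75. The main fit gave 1092 of all 61115 as higher. In the fit of all groups the count of 3 higher fell to 0 without Sp. NK replicate 2 or without C. NK replicate 2, and to 1 without Sp. NK replicate 1, without a variance trend or with a floor of 32. The 3′ minus 5′ difference of the control gene sucrose synthase was 3.71 to 4.20 in Sp. NK and 4.29 to 4.51 in C. NK, and it did not overlap between them, as in 1 of the 7 control genes. Its part in the contrast was not tested.

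In Sp. LK vs. C. NK, 4 of the 75 passed as higher (5.33%, against 1.15% of the 26541) and 1 as lower (0.399%). This contrast shares the C. NK arrays with the one before, so both hold the same control values. The median log2 fold change was 0.18, against 0.0038, and 61 of 75 were positive (81.3%, against 50.8% of the 26541). This median was 0.03 without Sp. LK replicate 2, 0.11 with median centring of each array and 0.29 without Sp. LK replicate 1. Ta.303.3.S1_x_at was higher by 0.83 ± 0.26 log2 units (standard error), and every Sp. LK array lay above every C. NK array. Ta.9810.1.S1_at was higher by 0.87 ± 0.34, with signals of 70.6, 76.2 and 120.2 in C. LK roots, 237, 401 and 220.5 in Sp. LK roots, and 147, 284 and 138 in Sp. NK roots, against 130.02, 197 and 135 in C. NK roots. Ta.26922.1.S1_at was higher by 0.72 ± 0.27, with 653, 493 and 535 in C. LK roots, 1138, 1853 and 1077 in Sp. LK roots, and 1412, 1470.5 and 669.7 in Sp. NK roots, against 876, 769 and 759.8 in C. NK roots. In both, all Sp. LK arrays were above all C. NK arrays, while Sp. NK replicate 3 was as low as C. NK or lower. Ta.28207.1.S1_at was higher by 0.82 ± 0.38, and TaAffx.71935.1.S1_at was again the only one lower, by 0.65 log2 units. At an unadjusted p below 0.05 there were 8 of the 75 (10.7%), against 4.51%. None of the 75, and none of the 61115 (2930 of them at an unadjusted p below 0.05), passed the adjustment in the main limma fit. The lowest adjusted p of the 75 was 0.983. The 3′ probe set of actin was dim (mean log2 signal 5.98). Among the 7 control genes, the 3′ minus 5′ difference of actin was -2.001 to -0.33 in Sp. LK and -3.87 to -2.16 in C. NK, and it was the 1 that did not overlap between these groups. Its part in the contrast was not tested. With only the 6 arrays of Sp. LK and C. NK, or without the 3 C. LK arrays, 8 of the 75 were higher, against 1202 and 1299 of all 61115. The main fit gave 1343 of all 61115 as higher. Unlike the 26541, this base also holds probe sets with a mean below 7. In the fit of all arrays the count of 4 higher fell to 1 without Sp. LK replicate 2, and to 2 without C. NK replicate 3, without a variance trend or with a floor of 32.

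**Figure D5:**
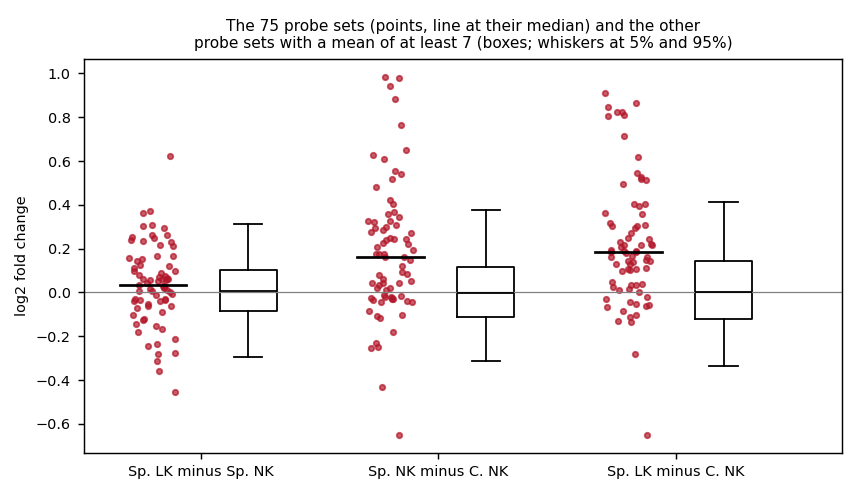
log2 fold change (y axis) of the 75 probe sets (points, with a line at their median) and of the other probe sets with a mean of at least 7 (boxes with the median and quartiles, whiskers at 5% and 95%) in the 3 contrasts without C. LK (x axis). The medians of the 75 were 0.04, 0.16 and 0.18, and the first turns to -0.11 without Sp. LK replicate 2.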

How the data were processed

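Roots of 4 groups with 3 replicates each were measured on the Affymetrix Wheat Genome Array. The authors read the scans with Command Console and normalized them with the MAS 5.0 algorithm in GeneSpring. The deposited values are log2 signals, 1 per probe set and array, without detection calls. After the log2 is undone, the mean of each array without the top and bottom 2% is 500.1, so arrays are comparable in total but the depth of a dim probe set is unknown. Low signals are noisy in MAS 5.0 values, and the rule used no probe set with a mean below 7. The number of arrays limits the precision. The table held 61290 probe sets. The 111 AFFX and 64 RPTR control probe sets were left out.

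The rule was applied to the deposited values with Python 3.11.15 (pandas 2.3.3, numpy 2.4.6). Groups came from the sample labels. The members and gene lists were chosen with earlier results of these data known. Probe sets got symbols from the platform annotation of the array. In all 1273 probe sets had 1 symbol (771 symbols), 59842 had none, and 1272 of the 1273 were found in RefSeq genes of IWGSC CS RefSeq v2.1. Contrasts were fitted with limma 3.58.1 in R 4.3.3 (4 group means, empirical Bayes with a mean-variance trend), and p-values were adjusted by Benjamini-Hochberg over 61115 probe sets. The code was tested on simulated data.

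Named are members with a symbol, the 10 largest differences, the 10 with the highest mean linear signal in the 9 other arrays, up to 5 per contrast and direction, and 3 on each side of each limit. Other members of shared clusters were named after their values were seen. Alternatives were the minimum signal, the fold limit, median centring, quantile normalization, a floor of 32, a pseudocount of 16, plain _at probe sets only, the methods' t-test, no variance trend, fewer arrays, a replicate block and each replicate left out. The labels number the replicates 1 to 3 in each group without saying what a number marks. Deviations of same-numbered arrays correlated at 0.34, 0.21 and 0.35 between Sp. NK and C. NK, at -0.21, 0.27 and 0.25 between Sp. LK and Sp. NK, and at -0.24, 0.30 and 0.025 between Sp. LK and C. NK. Replicates were pools of 20 plants.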

Additional observations from a re-analysis of the deposited data

How the results depend on the processing

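The count of 75 rests on the limits of the rule. With a minimum mean log2 signal of 8 there were 40 members and with a fold limit of 2 there were 16, all among the 75 by construction; without the fold limit there were 260. Median centring of each array gave 120, of which 68 were among the 75, while quantile normalization gave 83 (67 among them) and a pseudocount of 16 gave 66 (60 among them). With 1 array left out the count lay between 63 and 425. Fewer arrays then have to lie in order, so more probe sets pass by chance, most of all when a C. LK array is dropped. In these counts an effect of the array itself cannot be told apart from this, and it was not tested. Dropping C. LK replicate 1 gave 159, dropping C. LK replicate 3 gave 425 and dropping C. NK replicate 3 gave 177.

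The counts of members in the contrasts without C. LK were small and moved with single arrays. In Sp. LK vs. Sp. NK the replicate block gave 0 higher and 0 lower, and leaving out 1 replicate gave 0 to 1 higher and 0 to 2 lower (1 higher without Sp. NK replicate 2, 2 lower without Sp. LK replicate 2). Of all 61115, the block gave 978 higher and 756 lower. Leaving out 1 replicate gave 737 to 1249 higher and 569 to 989 lower. In Sp. NK vs. C. NK the replicate block in the fit of all groups gave 3 higher and 1 lower, and the fit of these 6 arrays with a replicate block, added after seeing the data, gave 7 higher. Of all 61115, these fits gave 1137 and 1178 higher. There were 7 higher with only the 6 arrays, 5 without the 3 C. LK arrays, and 1 each without a variance trend and with a floor of 32. In the same order, 1066, 1160, 1226 and 497 of all 61115 were higher. Leaving out 1 replicate gave 0 to 8 higher and 0 to 1 lower, with 0 higher when Sp. NK replicate 2 or C. NK replicate 2 was dropped, 1 when Sp. NK replicate 1 was, 5 when C. LK replicate 2 was and 8 when Sp. NK replicate 3 was. Of all 61115, 955 to 1558 were then higher and 872 to 1242 lower. The lower call was lost without Sp. NK replicate 1 or 3 or C. NK replicate 2 or 3. In Sp. LK vs. C. NK the replicate block gave 3 higher and 1 lower, against 1323 and 831 of all 61115. There were 8 higher with only the 6 arrays or without the 3 C. LK arrays, and 2 each without a variance trend and with a floor of 32. In the same order, 1202, 1299, 1506 and 761 of all 61115 were higher. Leaving out 1 replicate gave 1 to 8 higher and 0 to 1 lower, with 1 higher when Sp. LK replicate 2 was dropped, 2 when C. NK replicate 3 was, 7 when C. LK replicate 2 or 3 or Sp. LK replicate 1 was, and 8 when Sp. LK replicate 3 was. Of all 61115, 950 to 1845 were then higher and 733 to 1047 lower. The lower call was lost without Sp. LK replicate 2 or 3 or C. NK replicate 2 or 3. The cause of these changes was not tested. The methods' t-test called 0 of the 75 in Sp. LK vs. Sp. NK, 4 higher and 1 lower in Sp. NK vs. C. NK, and 5 higher and 1 lower in Sp. LK vs. C. NK. Of all 61115, it called 848, 862 and 998 higher and 663, 773 and 638 lower in these contrasts. No alternative gave a member with an adjusted p below 0.05. Of all 61115, the limma fit with a floor of 32 gave 10 in Sp. LK vs. Sp. NK. It gave 4 in Sp. NK vs. C. NK and 8 in Sp. LK vs. C. NK. The fit without a variance trend gave 1 in each contrast with C. NK, and the fit without the 3 C. LK arrays gave 1 in Sp. NK vs. C. NK.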
